A study of Mus musculus with 15 samples.

Results

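Microvessels from the tumour-bearing brain region of mice given aflibercept with AMG386 were compared, gene by gene, with microvessels from the same region of tumour-bearing mice given control IgG. The comparison rests on 3 libraries against 3, and all 19668 genes with a deposited value of at least 10 in at least 3 of the 15 libraries of the series were tested, out of 27174 genes in the table. All mice were adult WT BL6/57 animals, and each library pools 3 of them. Tissue was taken 21 days after tumour cells were transplanted. The tumour line and the doses are not given in the sources used here. Aflibercept is a decoy receptor that binds VEGF, AMG386 is a peptibody that neutralises angiopoietins, and the pair is called dual therapy below. The group given control IgG is called untreated tumour. For reference, values are also given for the opposite, non-tumour hemisphere of control IgG mice, for tumour-bearing region after triple therapy (aflibercept, AMG386 and anti-PD1), and, in the plots, for sham operated healthy mice, again with 3 libraries each. Nothing in the labels says whether the tumour and opposite-hemisphere libraries came from the same animals.

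VEGF-A made by hypoxic or malignant cells acts on the receptor KDR of endothelial cells and drives sprouting, with FLT1 as a decoy and placental growth factor as a further ligand. Angiopoietin 1 from mural cells activates the endothelial receptor TIE2 (gene Tek) and keeps vessels quiet, while angiopoietin 2, stored in endothelial cells, mostly opposes it and loosens vessels. Brain vessels add a barrier made of tight junctions, selective transporters and a coat of pericytes, which Wnt/beta-catenin signalling helps to maintain and which is often lost in gliomas.

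Values are normalised scores, which the authors made from reads by a factor for each library. Estimated depth was 9221881 to 18035515 reads in untreated tumour and 11792821 to 15535391 after dual therapy. Fold changes below are differences of log2(score + 1), dual therapy minus untreated tumour, with the standard error (SE) of a limma fit. A gene is said to have risen or fallen where its Benjamini-Hochberg adjusted p over all tested genes was below 0.05. Replicate libraries correlated at 0.941 to 0.977. Dual therapy replicate 2 lay apart on the second principal component, at -66.38 against -20.04 and -38.74 for the other dual libraries, and untreated replicate 1 lay at 51.82 against 22.51 and 22.98. In untreated tumour 25.7% ± 6.52 (SD, n = 3) of the summed score was mitochondrial ribosomal RNA, against 16.2% ± 1.1 after dual therapy, and the predicted ribosomal-RNA-like gene Gm26917 took 4.91% and 1.65%. The part of these differences in RNA composition in the results was not tested. In bulk RNA, fewer cells of a type and less RNA per cell cannot be told apart.

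Dual therapy changed 4377 genes, 22.3% of those tested: 2376 rose (12.1%) and 2001 fell (10.2%). Counts of rises and falls in the gene groups below stand beside these shares. The falls were more often large, since 464 genes fell and 88 rose by more than 4-fold. The median over all tested genes was -0.01. Rises made up 54.3% of the calls. When each library was instead centred on the endothelial identity genes, the median of all genes shifted to -0.18, 2890 genes were called and 29.3% of them rose (846 rose and 2044 fell). Counts under this endothelial scaling are given with some of the gene groups below, and stand beside these 2890 of 19668 genes. Without untreated replicate 1 the count was 2844, and without replicate 2 of both groups it was 3845.

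The genes of the blocked pathways moved in both directions. Among ligands, Vegfa (GRCm38 chromosome 17, 46016993 to 46032369) had scores of 607, 432 and 386 in untreated tumour and of 257, 246 and 333 after dual therapy. No dual library reached the lowest untreated one, and Vegfa fell by 0.75 on the log2 scale (SE 0.21, adjusted p = 0.016). Its mean after treatment, 279, lay beside the 272 of the opposite hemisphere. Vegfc, a ligand of the lymphatic receptor FLT4, rose from 187, 455 and 378 to 521, 538 and 589, a log2 change of 0.78 (SE 0.22). Without untreated replicate 1 its change was 0.40 and the call was lost (limma, adjusted p = 0.0778). Pgf (placental growth factor), Vegfb and Vegfd changed by -0.03, -0.06 and -0.39, and none of them passed the test.

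Among the VEGF receptors, Flt1 (chromosome 5, 147561604 to 147726011) had scores of 27435, 45050 and 31020 in untreated tumour and 45903, 61296 and 47488 after dual therapy. The groups did not overlap, with untreated replicate 2 just below the lowest dual library, and Flt1 rose by 0.60 (SE 0.18, adjusted p = 0.026). The signalling receptor Kdr did not pass the test: its scores were 8352, 7819 and 7943 without treatment and 6640, 8450 and 6766 with it, and the groups overlapped. The co-receptor Nrp1 rose by 0.40 (SE 0.10), while Nrp2 and Flt4 changed by 0.06 and -0.03 without passing. In all, 3 of 10 VEGF genes rose and 1 fell, with a median change of -0.03. With untreated replicate 1 left out, 1 of the 10 was called, and without dual replicate 2 there were 2. Under endothelial scaling 3 were called, and Nrp1 lost its call (limma, adjusted p = 0.266).

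In the angiopoietin pathway, Angpt2 (chromosome 8, 18690263 to 18741562) had scores of 4009, 1971 and 1444 in untreated tumour and 1091, 869 and 819 after dual therapy. All dual libraries were lower, and the gene fell by 1.29 (SE 0.34, adjusted p = 0.011). Angpt1 rose from 140, 291 and 312 to 480, 360 and 551, a change of 0.96 (SE 0.25), again without overlap. Their receptor gene Tek rose from 3835, 6950 and 6180 to 9707, 11682 and 10258, by 0.94 (SE 0.17, adjusted p = 0.00078). Tek was the only one of the called VEGF and angiopoietin genes whose call held under all 18 alternative settings, with adjusted p between 0.000167 and 0.0122. Ptprb, the phosphatase that restrains TIE2, rose by 0.61 (SE 0.17). Tie1, an orphan partner of TIE2, changed by 0.34 (adjusted p = 0.076). Angpt4 was scarce, at 5 to 19 in untreated tumour and 1 to 6 after treatment (adjusted p = 0.071). The calls of Angpt2, Angpt1 and Vegfa were each lost under 3 alternatives, with adjusted p up to 0.0758, 0.0625 and 0.0914. Those highest values came without untreated replicate 1, when Angpt1 changed by 0.60 and 2 genes of the list were called. Under endothelial scaling 2 were called as well. Angpt1 and Ptprb then lost their calls (limma, adjusted p = 0.0524 and 0.0906).

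**Figure D1:**
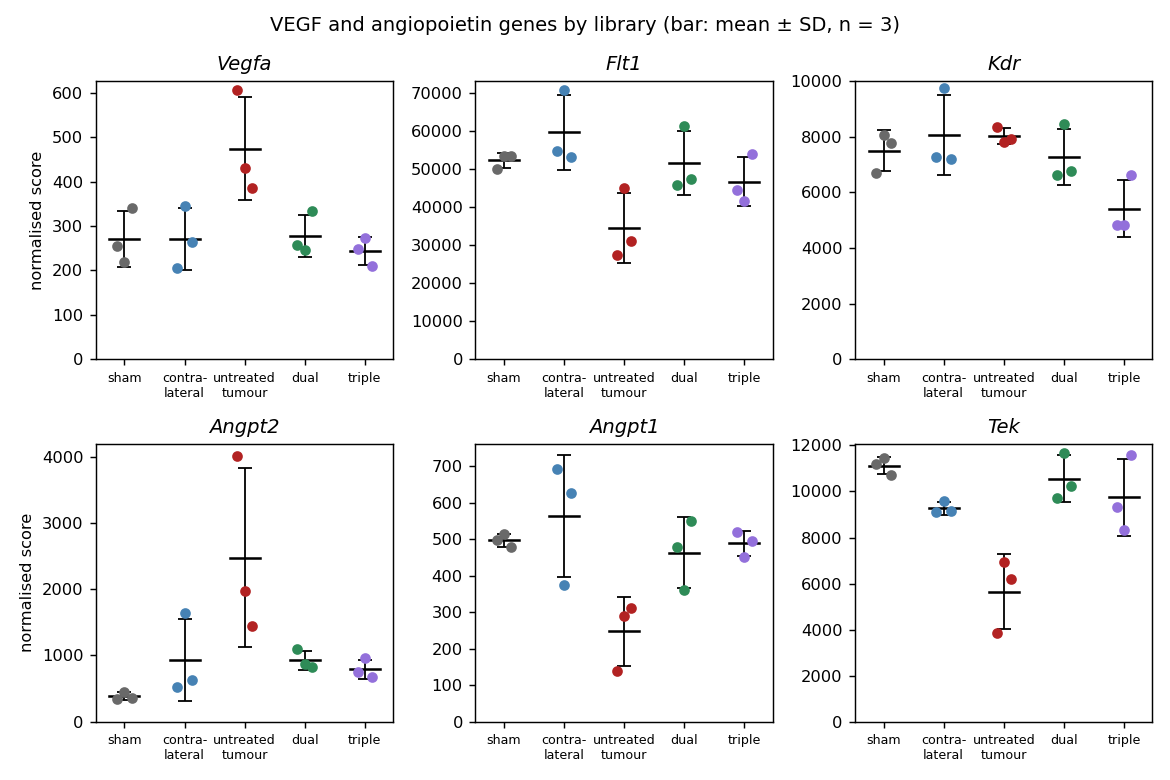
Normalised score (linear axis from 0) of 6 VEGF and angiopoietin genes in each library of the 5 groups; points are libraries and bars show mean ± SD (n = 3). After dual therapy Vegfa and Angpt2 were lower and Flt1, Angpt1 and Tek higher than in untreated tumour, while Kdr overlapped.

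Genes of sprouting endothelium fell. Of 28 tip cell and angiogenic genes 17 fell and none rose, with a median change of -0.97, and 17 were called under endothelial scaling as well. Aplnr, the apelin receptor of growing vessels (chromosome 2, 85136225 to 85139923), dropped from 628, 460 and 674 to 67, 50 and 72, a change of -3.20 (SE 0.37, adjusted p = 2.3e-05). Its ligand Apln went from 4192, 2061 and 2026 to 445, 419 and 803 (-2.29, SE 0.47). Every dual library was below every untreated library for both genes of the pair. Igfbp3, a secreted IGF-binding protein (chromosome 11, 7206086 to 7213923), had the smallest adjusted p of these genes, 4.9e-07. Its scores were 11223, 6285 and 10560 in untreated tumour and 1071, 837 and 1119 after treatment, a change of -3.18 (SE 0.22).

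Esm1, a VEGF-induced proteoglycan and tip cell marker, went from 373, 73 and 188 to 46, 30 and 34 (-2.23, SE 0.48). The adhesion molecule Mcam fell by 0.95 and the p53-inducible Trp53i11 by 1.14. The membrane protease Mmp14 fell by 1.17, the fibronectin receptor subunit Itga5 by 1.10, and Dll4, the Notch ligand of tip cells, by 0.72 (adjusted p = 0.034). Plvap, the diaphragm protein of fenestrated capillaries, did not pass: its scores were 323, 270 and 504 without and 365, 267 and 399 with treatment. Pdgfb, which recruits pericytes, changed by -0.01. After dual therapy 4 of the 28, among them Igfbp3, Dll4 and Trp53i11, were lower than in the opposite hemisphere, and 4 were higher. For Igfbp3 the opposite hemisphere had 5320, 2715 and 4626, and the change from it was -2.02 (adjusted p = 9.1e-06). Sham operated mice had 1903, 1933 and 1395. Of all genes 12.8% were called in that comparison, 6.91% higher and 5.89% lower after dual therapy, and the dual libraries serve in both comparisons.

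**Figure D2:**
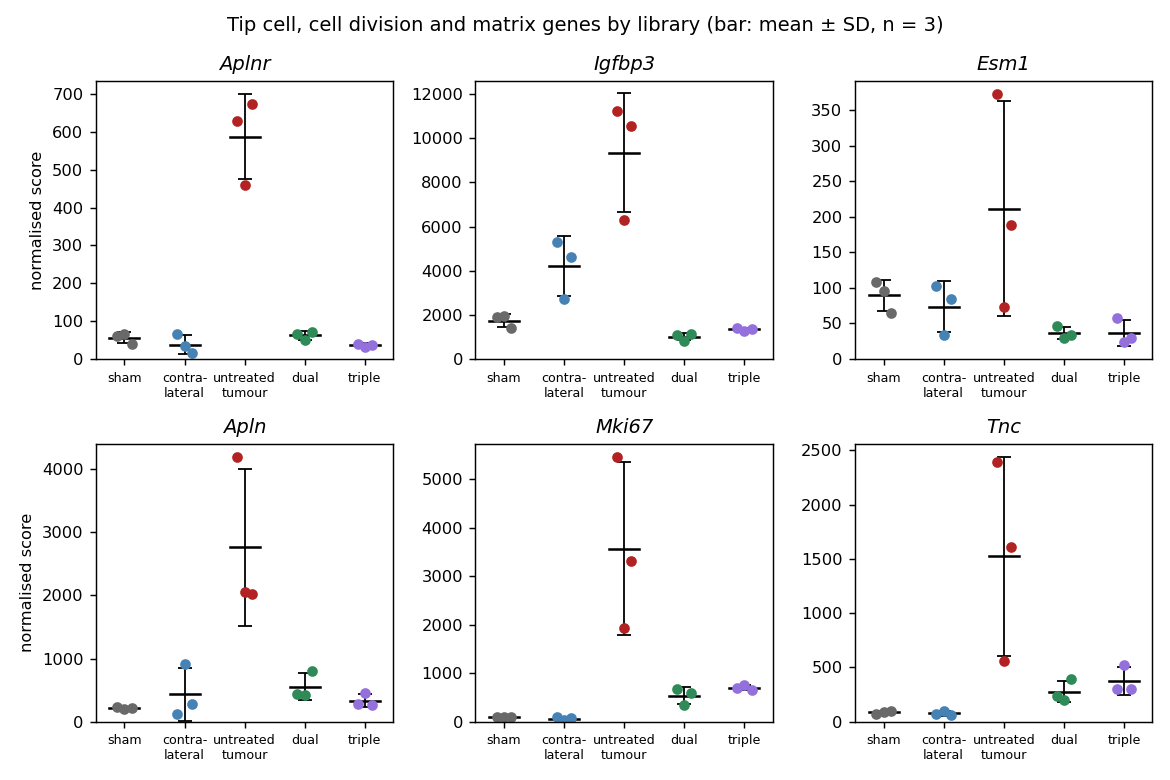
Normalised score (linear axis from 0) of Aplnr, Igfbp3, Esm1, Apln, Mki67 and Tnc in each library of the 5 groups; points are libraries and bars show mean ± SD (n = 3). In all 6 genes the dual libraries lie below the untreated tumour libraries, and for Igfbp3 also below the opposite hemisphere.

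Cell division genes fell as a block. Of 37 proliferation genes 35 fell, none rose, and the median change was -2.36; between 32 and 36 were called under each of the 8 alternatives tabulated for all lists. Mki67, the marker of cycling cells (chromosome 7, 135689784 to 135716361), fell from 5465, 1933 and 3323 to 671, 335 and 597 (-2.67, SE 0.33, adjusted p = 4.1e-05). The DNA topoisomerase Top2a went from 4153, 1999 and 2791 to 584, 412 and 454. For all 37 genes every dual library lay below every untreated one, as for 15.8% of all tested genes, including Ccnb2 (a mitotic cyclin, adjusted p = 0.055) and Bub3 (a checkpoint protein, 0.10), which did not pass. The helicase subunits Mcm2, Mcm3 and Mcm7 fell by 1.29, 1.31 and 1.43, and the mitotic genes Plk1, Bub1 and Cenpe fell by 3.20, 2.96 and 2.82. Division genes did not all return to the level of the opposite hemisphere. After treatment 21 of the 37 were still above it (6.91% of all genes). In untreated tumour 36 were above it (21.1% of all genes). Mki67 in the opposite hemisphere was 88, 35 and 75.

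Because these genes moved together, the 250 bases upstream of the start site are shown for 3 with large falls and for Mki67. The 3 had the largest falls among genes with a RefSeq window near the deposited 5′ end, on the chromosomes considered. Not all chromosomes were considered for this choice, so a gene with a larger fall may be missing. Sequences are from RefSeq on GRCm38.p6, read 5′ to 3′ in the direction of the gene. Capitals mark CCAAT, the CCAAT box (ATTGG on the other strand), and TTTGAA, the cell cycle homology region (TTCAAA on the other strand), as a search of both strands found them. Matches of the different motifs did not overlap in the sequences shown.
Plk1 (chr7:122159185-122159434, plus strand): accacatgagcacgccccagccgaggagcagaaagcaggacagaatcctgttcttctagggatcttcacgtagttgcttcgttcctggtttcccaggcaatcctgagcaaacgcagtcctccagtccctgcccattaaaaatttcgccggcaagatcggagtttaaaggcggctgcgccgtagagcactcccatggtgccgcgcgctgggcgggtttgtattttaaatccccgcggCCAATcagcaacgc
E2f8 (chr7:48881597-48881846, minus strand): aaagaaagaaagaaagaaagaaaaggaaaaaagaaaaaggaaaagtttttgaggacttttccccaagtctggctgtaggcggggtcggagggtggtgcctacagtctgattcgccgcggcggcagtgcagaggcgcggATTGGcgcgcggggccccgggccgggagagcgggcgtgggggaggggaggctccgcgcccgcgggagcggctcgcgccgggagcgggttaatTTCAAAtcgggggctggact
Bub1 (chr2:127831860-127832109, minus strand): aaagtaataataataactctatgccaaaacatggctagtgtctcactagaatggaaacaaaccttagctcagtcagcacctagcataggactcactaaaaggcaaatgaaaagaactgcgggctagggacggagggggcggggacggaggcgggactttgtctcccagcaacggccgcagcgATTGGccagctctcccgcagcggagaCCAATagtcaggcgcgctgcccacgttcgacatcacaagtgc
Mki67 (chr7:135716380-135716629, minus strand): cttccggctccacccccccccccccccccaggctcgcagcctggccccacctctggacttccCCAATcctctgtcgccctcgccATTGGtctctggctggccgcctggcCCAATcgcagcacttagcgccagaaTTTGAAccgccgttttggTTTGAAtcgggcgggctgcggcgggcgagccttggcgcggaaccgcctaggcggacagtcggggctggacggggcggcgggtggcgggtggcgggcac
CCAAT was found in 25 of the 30 proliferation genes with such a window (83.3%) and in 35.8% of the 11603 windows of all tested genes. TTTGAA was found in 10 of the 30 (33.3%) and in 10.6% of all windows. In Mki67 the TTTGAA matches began 116 and 98 bases before the start, and 3 CCAAT matches lay further upstream. For tip cell genes, CCAAT stood in 8 of 22 windows (36.4%) and TTTGAA in 2 (9.09%). A match describes letters in the window and does not show a bound site.

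Genes that define endothelium moved in both directions. Of 18 endothelial identity genes 4 rose and 2 fell, beside the 22.3% of all tested genes called, with a median of 0.16; 3 were called without untreated replicate 1 or without dual replicate 2. The junction protein gene Cdh5 scored 6541, 7387 and 6295 without and 7016, 7516 and 6342 with treatment, a change of 0.05. Pecam1 rose by 0.41 (adjusted p = 0.024) and the transcription factor Sox17 by 1.09, from 429, 806 and 637 to 1234, 1433 and 1195. The vessel surface proteins Clec14a and Ecscr fell by 0.63 and 0.68. The labelled tissue thus carried its defining markers in all libraries of both groups.

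Barrier transporters rose as a group. Of 27, 17 rose and none fell, with a median of 0.63; 13 were called under endothelial scaling and 10 without dual replicate 2. Abcb1a, the drug efflux pump P-glycoprotein (chromosome 5, 8660077 to 8748575), rose from 8441, 11915 and 9709 to 16808, 21402 and 15270 (0.83, SE 0.14, adjusted p = 0.00066). Mfsd2a, which carries lipids and holds back transcytosis, rose from 453, 627 and 342 to 812, 1183 and 820 (1.0, SE 0.22). The organic anion carrier Slc22a8 rose from 620, 717 and 713 to 1395, 1546 and 1090. In none of these genes did the groups overlap. The glucose transporter Slc2a1 went from 15054, 23590 and 17171 to 30670, 33544 and 22981, where the lowest dual library lay below the highest untreated one (0.65, adjusted p = 0.013), and the taurine transporter Slc6a6 and the thiamine transporter Slc19a3 rose by 1.01 each. Against the opposite hemisphere, 19 of the 27 transporters were lower in untreated tumour (21.4% of all genes). After dual therapy 2 were lower and 1 higher, near the shares of all genes, 5.89% lower and 6.91% higher.

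Of 12 tight junction genes 6 rose and none fell, with a median of 0.41, beside the 12.1% of all tested genes that rose. Occludin (Ocln) scored 3047, 5084 and 3553 in untreated tumour and 5887, 7007 and 5760 after treatment (0.70, SE 0.16). The scaffold genes Cgnl1 and Tjp1 rose by 0.73 and 0.50, and the adhesion gene Jam2 by 0.74. Claudin 5 (Cldn5), the main strand protein of this barrier, scored 5085, 6915 and 5112 and then 5821, 7830 and 6619, and its 0.25 did not pass (adjusted p = 0.24). Under endothelial scaling 3 of the 12 were called, and Lsr and Tjp1 were no longer among them. Of all 19668 tested genes 2890 were called under that scaling.

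Of 24 Wnt/beta-catenin genes 12 rose and none fell, with a median of 0.44. They included the receptor Fzd4 (0.79), its co-factors Tspan12 (0.56) and Reck (0.68), beta-catenin itself (Ctnnb1, 0.62), and the pathway's own targets Nkd1 (0.99), Apcdd1 (0.67), Axin2 (0.62) and Lef1 (0.66). Axin2 scored 474, 544 and 423 in untreated tumour and 749, 836 and 640 after treatment, without overlap. The ligands Wnt7a and Wnt7b changed by 1.02 and -0.49 at low scores and did not pass. Under endothelial scaling 7 of the 24 were called. In the Notch pathway 7 of 16 rose, among them Lfng (0.94), Notch3 (0.83), Hey1 (0.80) and Jag2 (0.78), while Dll4 fell. In the TGF-beta and BMP pathway 9 of 21 rose, with Ltbp1 (1.03), Tgfbr3 (0.74) and the endothelial receptor Acvrl1 (0.54) among them, and Bmp4 fell. Of those 2 lists 5 genes each were called under endothelial scaling, where 2890 of all 19668 tested genes were. Without that scaling 12.1% of all tested genes rose and 10.2% fell. The Notch count was 5 without untreated replicate 1 or without dual replicate 1, and the TGF-beta and BMP count was 6 without untreated replicate 1 or without dual replicate 1 or 2.

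**Figure D3:**
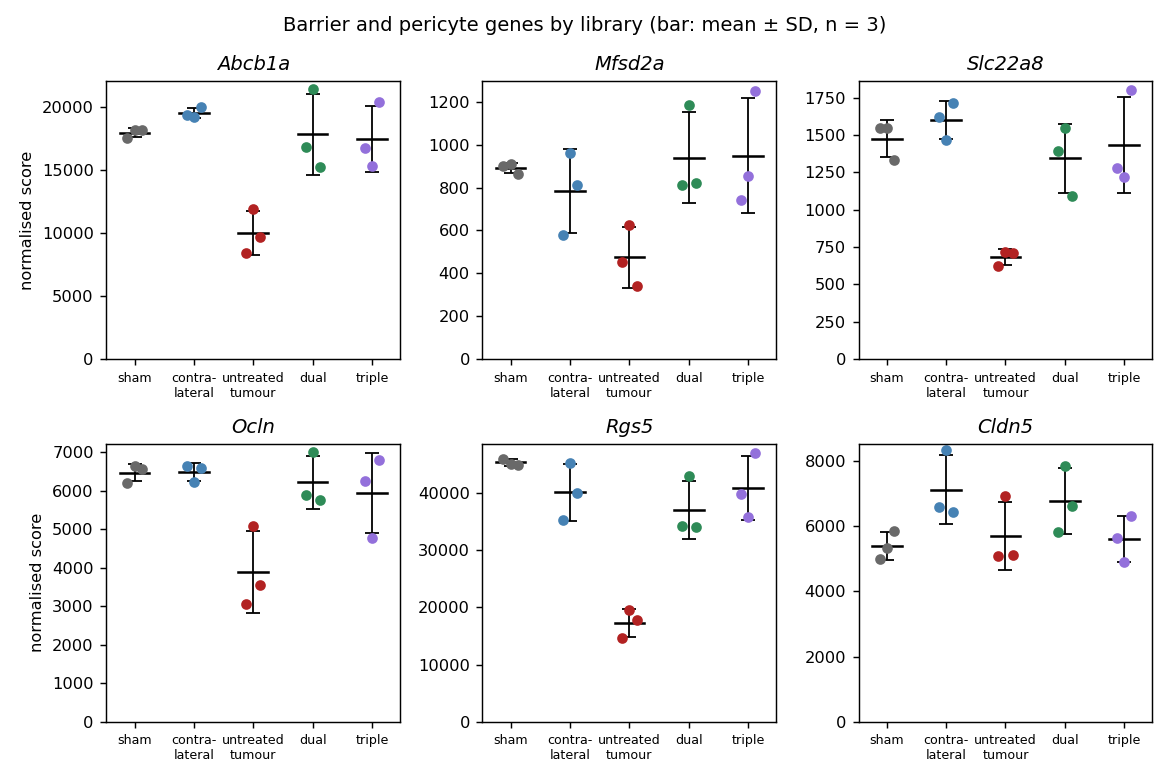
Normalised score (linear axis from 0) of 5 barrier genes and the pericyte gene Rgs5 in each library of the 5 groups; points are libraries and bars show mean ± SD (n = 3). Abcb1a, Mfsd2a, Slc22a8, Ocln and Rgs5 were higher after dual therapy than in untreated tumour without overlap, and Cldn5 overlapped.

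Many mural cell markers rose. Of 15 pericyte markers 9 rose and none fell, with a median of 0.63. Rgs5, a signalling regulator abundant in pericytes, scored 14627, 19529 and 17800 in untreated tumour and 34316, 42950 and 34040 after treatment (1.10, SE 0.15, adjusted p = 9.7e-05). Pdgfrb, the receptor that anchors pericytes, rose from 1585, 1604 and 1845 to 2857, 2638 and 2272 (0.62, SE 0.13) and stayed below the 3475, 4484 and 3838 of the opposite hemisphere (adjusted p = 0.0039). Kcnj8, a potassium channel gene of pericytes, did not pass (-0.34). Of 12 smooth muscle markers 9 rose (median 0.86), with Myl9 at 1.17 and Acta2, whose untreated scores of 3043, 8117 and 8263 were all below the dual scores of 14395, 10340 and 11449. Of 12 fibroblast markers 9 rose (median 0.88). Under endothelial scaling 6, 5 and 4 genes of these 3 lists were called. Untreated replicate 1 had the lowest summed smooth muscle score, 12186 against 26604 and 28893 in the other untreated libraries; without it the smooth muscle median was 0.49 and 5 markers were called, and 5 were called without dual replicate 1.

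Matrix genes moved in both directions. In the basement membrane list of 19 genes, 7 fell and 5 rose. The fallers included the main collagen IV chains Col4a1 (21370, 18187 and 18752 to 12278, 10813 and 10975; -0.77) and Col4a2 (-0.78), the laminin chain Lamb1 (-1.20) and the linkers Nid1 (-0.70) and Nid2 (-1.19). The risers were Lamc3 (1.18), Lama2 (1.0), Col4a5 (0.95), Lamb2 (0.86) and Agrn (0.54). Of 22 interstitial matrix genes 8 fell and none rose, with a median of -0.46. Tenascin C (Tnc), a matrix protein of tumours and wounds, fell from 2395, 563 and 1613 to 239, 203 and 392 (-2.27, SE 0.38), and Col6a3 and Vcan fell by 1.99 and 1.79. Without dual replicate 2 the interstitial median was -0.24, with 5 genes called. Fibronectin (Fn1) changed by -0.20 and did not pass. Among 17 proteases and inhibitors 5 fell, among them Mmp13 (-2.75), Timp1 (-2.33) and Mmp2 (-1.42), and Timp3 (0.67) and Adamts5 (0.53) rose; their median of -0.46 was -0.25 without dual replicate 2 and -0.71 without dual replicate 3.

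**Figure D4:**
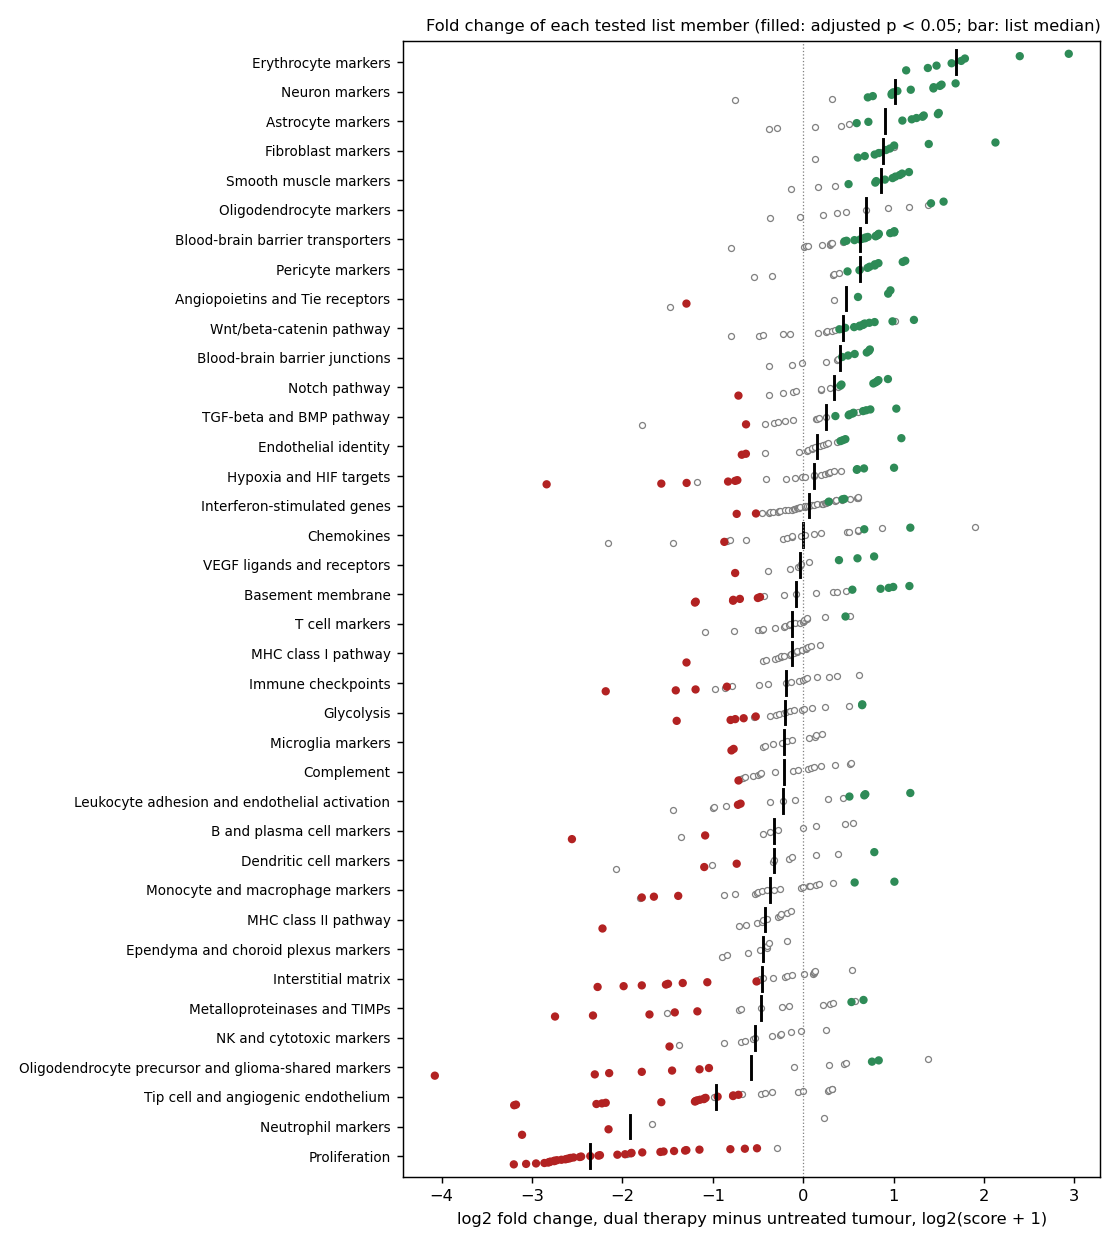
Log2 fold change, dual therapy minus untreated tumour, of each tested member of 38 gene lists, ordered by list median (black bar); filled points passed an adjusted p of 0.05 in limma (green rose, red fell) and open points did not. Proliferation genes lie furthest to the left and erythrocyte markers furthest to the right.

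Hypoxia and glycolysis genes did not move as 1 block. Of 25 hypoxia genes 6 fell and 4 rose, with a median of 0.12. Those that fell were Ankrd37 (-2.84), the vasodilator peptide gene Adm (-1.57), the carbonic anhydrases Car9 and Car12 (-1.29 and -0.83), the oxidoreductase Ero1l (-0.73) and Vegfa. Those that rose were Ndrg1 (1.0), the endothelial hypoxia factor Epas1 (0.67), Ddit4 (0.60) and the mitophagy receptor Bnip3l (0.59). Of 20 glycolysis genes 5 fell: the lactate exporter Slc16a3 (-1.40), Gapdh (-0.80), Pgk1 (-0.75), Ldha (-0.66) and Pkm (-0.53). Slc2a1 and Eno2 rose. Without untreated replicate 1 the hypoxia list had 4 calls and a median of 0.03, without dual replicate 2 it had 5 calls, and under endothelial scaling its median was -0.05. Glycolysis had 4 calls without dual replicate 2. ACGTG, the core of the hypoxia response element, stood in 9 of 18 hypoxia gene windows upstream of the start and in 9 of 30 proliferation windows, against 20.9% of all windows; the letters were searched on both strands and are also part of the E-box CACGTG.

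Interferon-stimulated genes stood above the opposite hemisphere in untreated tumour and after dual therapy alike. Of 43 interferon-stimulated genes 3 rose and 2 fell, with a median of 0.06, beside the 22.3% of all tested genes called. All 43 were above the opposite hemisphere after dual therapy, where 6.91% of all genes were. In untreated tumour all 43 were above it too, where 21.1% of all genes were. The 3 that rose, Ifi44, Ifit1 and Ifih1, changed by 0.46 or less and lost their calls under at least 9 of the 18 alternatives each. No interferon gene was called without untreated replicate 1, 1 was without dual replicate 2, and 2 were without dual replicate 1 or untreated replicate 3. Under endothelial scaling 1 was called. Of 20 MHC class I genes 1 fell, the transactivator Nlrc5, from 5955, 3900 and 5434 to 2176, 1937 and 1995 (-1.30, SE 0.28). The 19 others did not pass, and H2-K1, a class I heavy chain, scored 5889, 4314 and 6128 and then 5578, 3451 and 4501. Of 12 class II genes 1 fell, H2-Eb2, a call lost without dual replicate 2 or without untreated replicate 1 or 3.

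The checkpoint ligand Cd274 (PD-L1) scored 892, 662 and 892 without and 1258, 945 and 974 with treatment, and its 0.38 did not pass (adjusted p = 0.43). Its receptor Pdcd1 was at 14, 22 and 52 and then 36, 3 and 44. The checkpoint, chemokine, adhesion and complement counts that follow stand beside the 22.3% of all tested genes called, 10.2% of them fallen. Of 19 checkpoint genes 4 fell: Cd276, also counted with the angiogenic genes (376, 179 and 254 to 70, 73 and 34), Tnfrsf9, Pvr and Havcr2. Of 22 chemokines, Cxcl12 (4898, 6688 and 4967 to 10211, 17074 and 10971; 1.19) and Cx3cl1 rose and Ccl6 fell, while Cxcl9 and Cxcl10, which attract T cells, changed by -0.13 and 0.12. Of 15 adhesion genes 4 rose and 2 fell. Icam1 (-0.09), Vcam1 (0.44), Sele (-1.0) and Selp (-0.85), which capture leukocytes, did not pass. Of 18 complement genes 1 fell, C3ar1; with 1 library left out, 0 complement genes (without dual replicate 2 or 3 or untreated replicate 1) to 4 (without untreated replicate 2) were called. Without untreated replicate 1 there were 2 checkpoint, 2 adhesion and 1 chemokine calls. The checkpoint count was also 2 without dual replicate 2 or untreated replicate 3, and the chemokine count was 6 without untreated replicate 3.

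Among immune cell markers, calls again stand beside the 22.3% of all tested genes. Of 20 T cell markers 1 rose, Tcf7, which is also a Wnt effector, and Cd3e scored 122, 98 and 123 and then 133, 88 and 129. Of 13 NK and cytotoxic markers 1 fell, Eomes, while granzyme B (Gzmb) went from 281, 324 and 241 to 124, 96 and 105 without passing (adjusted p = 0.094). Of 10 B cell markers Cd79b and Cr2 fell, and of the 4 tested neutrophil markers Cxcr2 and Retnlg fell, from means of 27.7 and 57.3. Among 22 monocyte and macrophage markers, Mrc1 (0.57) and Cd163 (1.01), both typical of perivascular macrophages, rose, and Vcan, Gpnmb (-1.65) and Fabp5 (-1.38) fell. Of 12 microglia markers Tmem119 and P2ry12 fell by 0.79 and 0.77. Of 11 dendritic cell markers 1 rose and 2 fell. Several of these small counts rested on single libraries. The T cell call was lost without dual replicate 2 or without untreated replicate 1 or 3, and 2 markers were called without untreated replicate 2. Among NK markers 1 was called without dual replicate 3 and 0 without any other single library. Under endothelial scaling 0 T cell and 0 NK markers were called. Of neutrophil markers 0 were called without untreated replicate 2, and 1 without any other. Leaving out dual replicate 2 left 1 B cell, 1 microglia and 1 dendritic cell call, and a median of -0.12 in place of -0.36 for monocytes and macrophages. Leaving out untreated replicate 1 also left 1 B cell and 1 dendritic cell call, and leaving out dual replicate 3 left 1 B cell call.

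Markers of some other cells also moved with treatment. Of 14 neuron markers 12 rose (median 1.02). Their summed score was 2783 to 5007 in untreated tumour, 6416 to 11594 after dual therapy and 14594 to 17498 opposite the tumour. The neuronal marker Gad1 scored 80, 42 and 50 and then 128, 132 and 249. Of 14 astrocyte markers 9 rose (median 0.91), with sums of 17476 to 19405 and of 21018 to 53618. Of 11 oligodendrocyte markers 2 rose, near the overall share, since 22.3% of all tested genes were called and 12.1% rose. Of 8 ependymal and choroid plexus markers none was called. All 8 tested erythrocyte markers rose (median 1.70, with sums of 1123 to 2789 and of 3515 to 7685). After dual therapy 6 of them were above the opposite hemisphere too (6.91% of all genes). None of the lists had a tested marker at 0 in all 3 libraries of either group. The part of these other cells in the rises of barrier and mural genes was not tested. Under endothelial scaling 5 neuron, 6 astrocyte and 7 erythrocyte markers were called. Without dual replicate 3 the counts were 6 for neurons, 5 for astrocytes and 1 for oligodendrocytes, and without untreated replicate 2 they were 6 for neurons and 1 for oligodendrocytes. Without dual replicate 1, 5 oligodendrocyte markers were called. Erythrocyte calls numbered 4 without dual replicate 2 and 5 without untreated replicate 1.

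Genes shared by oligodendrocyte precursors and glioma went the other way: 7 of 14 fell and 2 rose, with a median of -0.57 (-0.30 without untreated replicate 1 and -0.90 without untreated replicate 2). Olig2 scored 931, 368 and 592 and then 124, 110 and 168 (-2.15), and Sox10 fell by 2.31 and Dll3 by 4.08. Egfr was among the 2 that rose, by 0.76. The summed score of the list overlapped between the groups, at 10371 to 15038 in untreated tumour and 9411 to 10945 after dual therapy. Of 3 genes near 0 outside tumour libraries in earlier results on these data, all fell. Because the same libraries served in their choice, these falls are not a separate test. Strc scored 1285, 569 and 892 and then 153, 122 and 104, Pet2 1447, 842 and 801 and then 171, 97 and 145, and both were at 10 or less opposite the tumour. Nxf3 fell by 1.75 and was at 4, 0 and 0 there. The imprinted RNA H19 scored 6530, 5892 and 2938 in untreated tumour and 838, 724 and 547 after dual therapy (-2.80), and 157, 50 and 12 in the opposite hemisphere. The part of a changed share of tumour cells in the falls of division, matrix and tip cell genes was not tested.

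**Figure D5:**
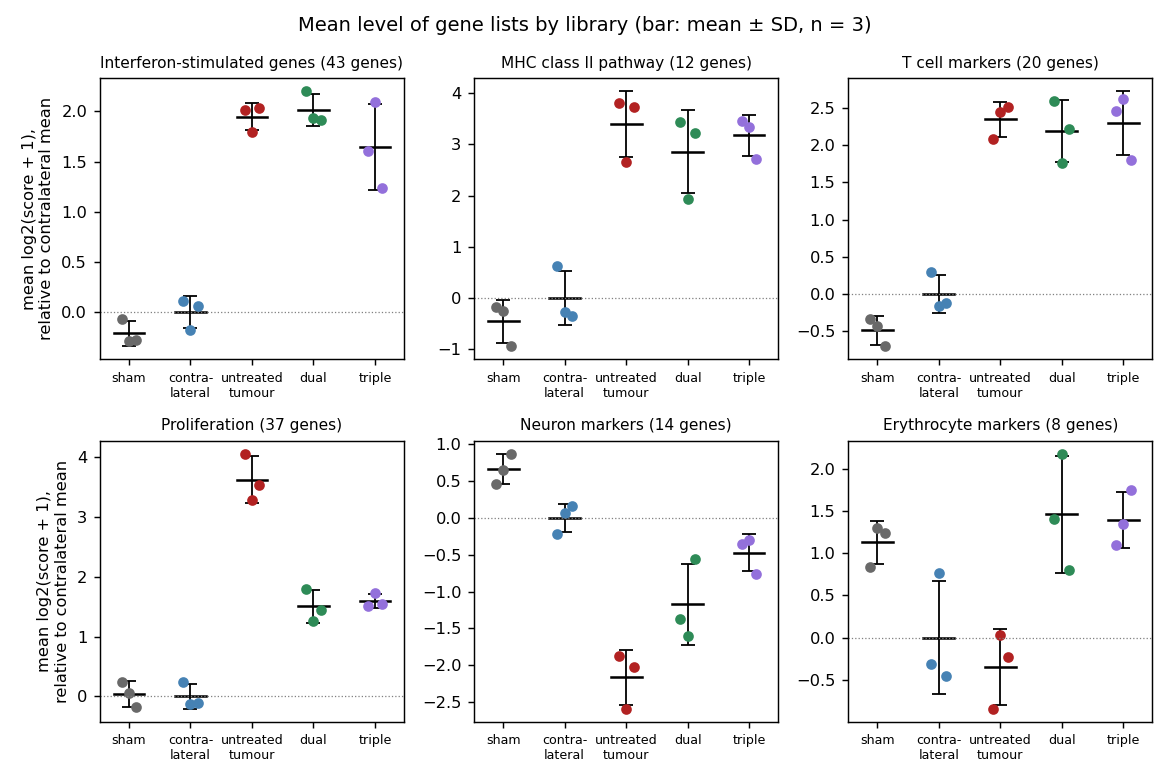
Per-library mean of log2(score + 1) over the genes of 6 lists, with the opposite hemisphere's mean set to 0 (dotted line); points are libraries and bars show mean ± SD (n = 3). Interferon, MHC class II and T cell lists overlap between untreated tumour and dual therapy, proliferation is lower, and neuron and erythrocyte lists are higher after dual therapy.

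Among genes with an established symbol, groups that did not overlap and a higher group mean of at least 50, the 15 largest falls included mast cell proteases and cell cycle genes. Mcpt2 scored 80, 67 and 34 and then 0, 0 and 10, and Mcpt1 52, 65 and 34 and then 2, 0 and 11. Pif1, a DNA helicase, and the mitotic genes Ckap2, Troap, Ska1, Cdc25c, Knstrn and Cdca3 fell by 3.49 to 4.38. The histone genes Hist1h3c and Hist1h2ak fell by 3.90 and 3.52. The others were Mmp10, a matrix protease (-3.65), Pla2g2f, a secreted phospholipase (-3.60), Apol7a (-3.56) and Dppa4 (-3.47). The largest rises were smaller: Thbs4, a matrix protein, by 2.48, Cdk15 by 2.38, Mamdc2 by 2.18, the BMP antagonist Nog (5, 14 and 15 to 50, 59 and 41) by 2.16, Fam180a by 2.15, the activin-type receptor Acvr1c by 2.14 and the organic anion transporter Slc22a6, also a fibroblast marker, by 2.13.

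Adding anti-PD1 to the same agents changed 171 genes relative to dual therapy, 0.869% of those tested, with 103 higher (0.524%) and 68 lower (0.346%) in limma at an adjusted p below 0.05, and 2850 at an unadjusted p below 0.05. Because both treatments share the untreated libraries, this contrast is also the test of the difference between their effects. No member of the VEGF, angiopoietin, tip cell, junction, transporter, proliferation, interferon or MHC lists was among the 171. With 0.869% of all genes called, 0 in lists of this size lies near the overall share. Of the other lists, neuron markers had 2 calls. The glycolysis, the oligodendrocyte precursor and glioma-shared, and the monocyte and macrophage lists had 1 each. All of these were higher after triple therapy. In the VEGF list, Kdr scored 4817, 4828 and 6614 after triple therapy (adjusted p = 0.16 against dual). The count was 0 without dual replicate 2, without triple replicate 1 or under endothelial scaling, each time in limma and with 2037 to 2278 genes at an unadjusted p below 0.05.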

How the data were processed

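Total RNA of brain microvessels (100 ng per library) was extracted with Qiagen's micro columns, treated with DNase and made into libraries with a stranded Clontech kit, per the labels' protocols. STAR 2.4.0a placed the reads on GRCm38 (mm10), and they were counted with featureCounts 1.4.5-p1 and passed through DESeq2, per the submitters' processing notes; the strand setting of the count step is not given in the sources, so values of a gene and an antisense partner may be mixed. The authors deposited a normalised score per gene, a whole number that fits reads multiplied by a factor per library and rounded, so no count test was used. Depth was estimated from the gaps between scores, and no interval for single values was drawn from it.

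Scores were transformed to log2(score + 1), which understates changes of low genes. Genes with at least 10 in at least 3 libraries were kept, and 7506 were left out. A limma model (limma 3.58.1 under R 4.3.3) held a mean for each of the 5 groups over all 15 libraries, and its variances were moderated towards a trend (residual degrees of freedom 10, prior 8.26). P-values were adjusted by Benjamini-Hochberg over 19668 genes and called below 0.05. On simulated data for this comparison with 19668 genes, 54.3% of 105 genes changed by 1 log2 unit and 92.6% of 95 changed by 2 were recovered. No gene with a low score was among those changed, and all other genes were set equal between the 2 groups. The deposited data differ in both respects, so recovery there may differ too. The labels call the libraries biological replicates. Lists (38, with 641 members, of which 620 were tested) are described by counts and medians without a set test. Of the 641 members 31 were in more than 1 list. Members, lists and rules were chosen with earlier results of these data known.

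Named genes were up to 15 in each direction with the largest called change (established symbol, groups that do not overlap, and 50 or more as the higher of the group means), up to 5 members per list with the smallest adjusted p, all VEGF and angiopoietin genes, and Cldn5, Mfsd2a, Plvap, Slc2a1, Abcb1a, Pdgfrb, Rgs5, Cd274, Pdcd1 and Mki67. Other genes in the text, such as Apln, Esm1, Cdh5 and Strc, were chosen after their values were seen. Alternatives covered pseudocount, filter, scaling, weights, trend, the libraries fitted, the replicate number as a block and each library left out.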

Additional observations from a re-analysis of the deposited data

How the results depend on the processing

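Dual therapy against untreated tumour gave 4377 called genes in limma, 2890 under endothelial identity scaling, 2205 with only the 6 libraries compared, and 2844 (without untreated replicate 1) to 4649 (without untreated replicate 2) with 1 library left out. Of the calls under endothelial scaling 2725 were among the 4377, and of those with 6 libraries 2167. The cause was not tested beyond the smaller number of libraries. Dual therapy against the opposite hemisphere gave 2518, 1453 under endothelial scaling, and 1587 (without contralateral replicate 3) to 2194 with 1 library left out.

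Triple against dual therapy gave 171 called genes, 327 with array quality weights, 14 without a trend, 31 with only 6 libraries, 90 without replicate 2 of untreated tumour and dual therapy together, and 0 to 276 with 1 library left out: 0 without dual replicate 2 (2278 at an unadjusted p below 0.05) or triple replicate 1 (2167), 29 without triple replicate 3, 100 without triple replicate 2 and 276 without dual replicate 1. It gave 0 under endothelial scaling (2037 unadjusted) and 0 with the replicate block in only 6 libraries (2244 unadjusted). The cause was not tested.

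Replicate numbers are shared between groups without a stated pairing. Deviations of same-numbered dual and untreated libraries correlated at 0.0552, 0.103 and 0.036. Not all of these exceed 0.1, and therefore the numbers were not treated as pairs. Each library correlated best with its own number, which is a hint from the data and not from the design. The replicate block gave 4353 called genes for dual therapy against untreated tumour, 169 for triple against dual and 2484 for dual against the opposite hemisphere. In only the 6 libraries, an alternative chosen after seeing the data, the block gave 3172, against 2205 without it.

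Of 171 named genes called, 108 kept their call under all 18 alternatives that could test them, 63 lost it in at least 1, and none reversed. Kdr was called under quantile normalisation (adjusted p = 0.0366), Tie1 without untreated replicate 3 (0.045) and Angpt4 without dual replicate 1 or untreated replicate 1. The calls of Flt1 and Ptprb were lost in 5 alternatives each, that of Vegfc in 4 and that of Nrp1 in 3. With 3 libraries a group and estimated depths of 6365348 to 18332056 reads, small changes and genes with low scores are the least certain.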

Other observations

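A few genes differed between dual and triple therapy. The eosinophil chemokine receptor gene Ccr3 scored 54, 217 and 69 in untreated tumour, 35, 71 and 75 after dual therapy and 7, 6 and 4 after triple therapy, and triple therapy was lower than dual by limma (-3.15, SE 0.67, adjusted p = 0.0359). Fkbp5, a glucocorticoid-responsive gene, scored 542, 332 and 305 after dual therapy and 1026, 1116 and 862 after triple therapy (1.39, SE 0.29, adjusted p = 0.0326). Mrc1, which dual therapy raised, was higher again with triple therapy, at 2595, 2102 and 3045 (0.67, SE 0.14, adjusted p = 0.0365). The long noncoding RNA Neat1 scored 6749, 7447 and 6874 in untreated tumour, 2197, 2278 and 2654 after dual therapy and 1250, 1707 and 1179 after triple therapy, without overlap between any pair of these groups. These 4 genes were chosen after their values were seen, and the triple against dual calls were absent when dual replicate 2 or triple replicate 1 was left out.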
